A study of Mus musculus with 4 samples.

Results

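Genes of fatty acid oxidation, among them the nuclear receptor gene Ppara and several of its targets, were described in the aorta of mice that lack apolipoprotein E. The set was a list of 31 genes given by name, and its members were found as the probe sets whose platform annotation names exactly 1 of them. Of the 31, 28 had at least 1 such probe set (42 probe sets in all) among 12393 genes on 22626 probe sets. No probe set names Cpt1b, Ucp2 or Acsl1 alone, and these 3 genes are not described. The samples were aortas of female mice aged 6 weeks on 2 backgrounds, C57BL/6 apoE-/- and C3H/HeJ apoE-/- (C3H below), and 1 array was deposited for each of 4 groups. The animals were weaned at 3 weeks of age. From 4 weeks they stayed on chow or ate a Western diet for 2 weeks, states that the labels call hyperlipidemia and extreme hyperlipidemia. All groups, the chow groups included, carry the apolipoprotein E defect in every cell, and no wild type was analysed here. The tissue is whole aorta, and whether an array held RNA of 1 animal or of a pool is not known from the labels.

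Fatty acids are activated to acyl-CoA in the cytosol and cross into mitochondria as carnitine esters. There a cycle of dehydrogenation, hydration, a further dehydrogenation and thiolysis releases acetyl-CoA and passes electrons to the respiratory chain. Peroxisomes shorten very long chains by a related route. PPAR alpha, the receptor encoded by Ppara, binds fatty acids, pairs with the retinoid X receptor and switches on many of these enzymes in liver, heart and brown fat. In an aorta taken with its surrounding tissue, brown adipocytes and heart muscle are rich sources of these transcripts, and vascular cells hold less.

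Each value is a signal on the linear scale after quantile normalization of the 4 arrays. A signal of 83.6, the 40th percentile of all values, served as a floor. It is a threshold of this work, and where 1 of a pair of signals lies at or under it, the fold is computed from the floor and printed as "at least". Where a gene has several probe sets, the one with the highest mean log2 signal represents it, and a gene was counted as higher or lower from 1.5-fold, with both arrays above the floor. With 1 array per group neither side of a comparison has a replicate, so these counts come from no test. The C3H chow array stood apart from the others. Where every array exceeded the floor, its correlations with the others over probe sets were 0.868 to 0.904, where other pairs reached 0.931. Its actin 3'/5' ratio was 2.28 against 1.63 to 1.83, but its Gapdh 3'/5' ratio, 1.19, lay within the 1.03 to 1.28 of the others. Within a comparison, probe sets that name 1 gene spread by a pooled SD of log2 0.48 to 0.60 (1675 genes). That spread is disagreement between probes on the same arrays and holds no variation between animals or arrays.

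The main feature of these genes was a low level on the C57BL/6 chow array. Of the 26 members above the floor on all 4 arrays, 19 had their lowest signal on that array, where 27.4% of 5646 genes did. Among the 19 were Ppara, 3 of 5 acyl-CoA dehydrogenases, both subunits of the trifunctional protein, the thiolase Acaa2, all 3 enzymes for unsaturated chains and all 3 electron transfer flavoprotein genes. None of the 26 was highest there. Relative to the mean of a gene's 4 log2 signals, the median member stood at -0.35 on C57BL/6 chow and at 0.16 on C57BL/6 Western. In C3H it stood at 0.19 on chow and at 0.00 on Western diet. The signals of all 28 members summed to 124222 and 190027 in C57BL/6 and to 182332 and 159687 in C3H, chow before Western diet. Hadh supplied 41872 of the C57BL/6 Western sum and 32763 of the C3H chow sum. The place of C57BL/6 Western above C3H chow in these sums rests on Hadh. The C3H chow array held the highest signal of 12 of the 26 (30.9% of all genes), so this share was nearer to the background, and the count was 6 with equal array medians. Without the C3H chow array, and with the other arrays normalized again, 20 members were lowest on C57BL/6 chow. The share of all genes was taken from the normalization of all 4 arrays, over genes above the floor on all 4. There 20 of 26 members and 35.5% of 5646 genes lay lowest on C57BL/6 chow among those 3 arrays.

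**Figure D1:**
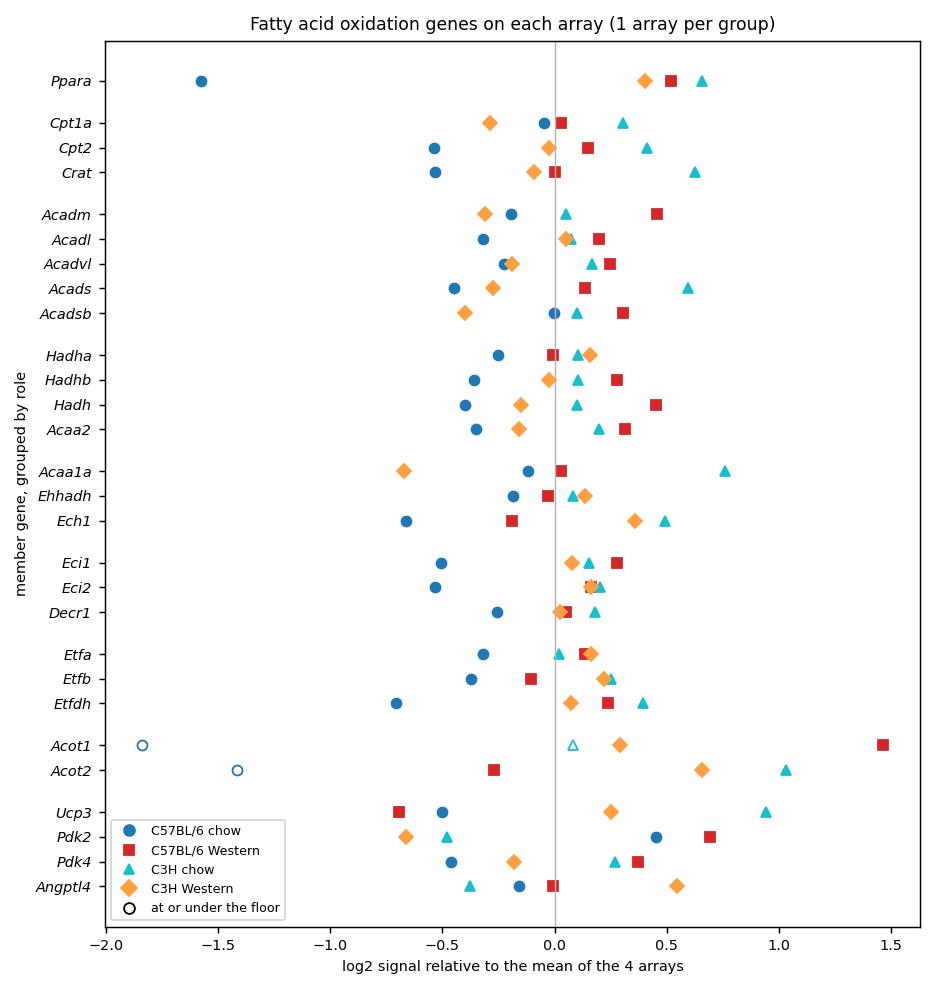
Log2 signal of each of 28 member genes relative to the mean of its 4 arrays, by its representative probe set, with genes grouped by role. Each point is 1 array, and open points lie at or under the floor of 83.6. The C57BL/6 chow points lie leftmost for 19 of the 26 members with no open point, and Ppara is the farthest of those 19 at log2 -1.58.

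In C57BL/6, members were higher on Western diet than on chow. Of 26 measured in both arrays, 10 were at least 1.5-fold higher and 0 lower, against 13.8% and 14.3% of 6776 genes. The median log2 difference was 0.50, against 0.00 for all genes. The 10 were Ppara, Cpt2, Acadm, Hadhb, Hadh, Acaa2, Eci1, Eci2, Etfdh and Pdk4. The count was 16 with equal array medians, where the median of all genes moved to 0.08, and 6 with cyclic loess.

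In C3H the same diet went with lower levels. Of 27 members measured, 5 were at least 1.5-fold lower and 1 higher, against 17.1% of 6690 genes in each direction. The share lower (18.5%) lay near the background, and the share higher (3.70%) lay below it. The median log2 difference was -0.26, against -0.01 for all genes. The 5 were Cpt1a, Acads, Acaa1a, Ucp3 and Crat, and the 1 that was higher was Angptl4. With equal array medians 2 were lower and 1 higher, and there the median of all genes was 0.11, with 21.6% of genes higher and 12.6% lower. These C3H values are all taken against the C3H chow array.

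The direction of the diet difference was opposite in the strains for most members. Of the 26 above the floor on all arrays, 21 were higher with Western diet in C57BL/6 and lower in C3H by any amount, where 27.7% of genes were, and 0 had the reverse pattern. With equal array medians the count was 17, since the small C3H differences of Acadl, Eci1, Eci2 and Etfb then changed sign. Many of these differences were small, and 0 of the 26 passed 1.5-fold in both strains (2.8% of genes). In 10 of the 26 the diet differences of the strains were also at least log2 1 apart, where 10.6% of genes were, and 0 had this in the reverse direction. The diet comparisons of the strains share no array.

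Between the strains on chow, members were higher in C3H. Of 26 measured, 12 were at least 1.5-fold higher (20.8% of 6605 genes) and 1 lower (20.4%), with a median log2 difference of 0.52 against 0.03 for all genes. The 12 were Ppara, Cpt2, Acads, Acaa1a, Ech1, Eci1, Eci2, Etfb, Etfdh, Ucp3, Pdk4 and Crat, and the lower gene was Pdk2. On Western diet the median was -0.17 against 0.00. Of 28 measured, 2 were higher in C3H (13.3% of 6806 genes) and 6 lower (13.4%). The 6 were Acadm, Acadsb, Hadh, Acaa1a, Pdk2 and Acot1, and the 2 were Ucp3 and Acot2. The chow comparison uses the same C57BL/6 chow array as the C57BL/6 diet comparison, so these values repeat its low signals in part.

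At 2-fold, few members remained. In C57BL/6, 1 of 26 was higher with Western diet (3.75% of genes) and 0 lower (3.93%). In C3H, 0 of 27 were higher (6.47%) and 1 was lower (5.87%). On chow, 6 of 26 were higher in C3H (8.01%) and 0 lower (9.1%). On Western diet, 0 of 28 were higher in C3H (4.07%) and 2 lower (4.2%).

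**Figure D2:**
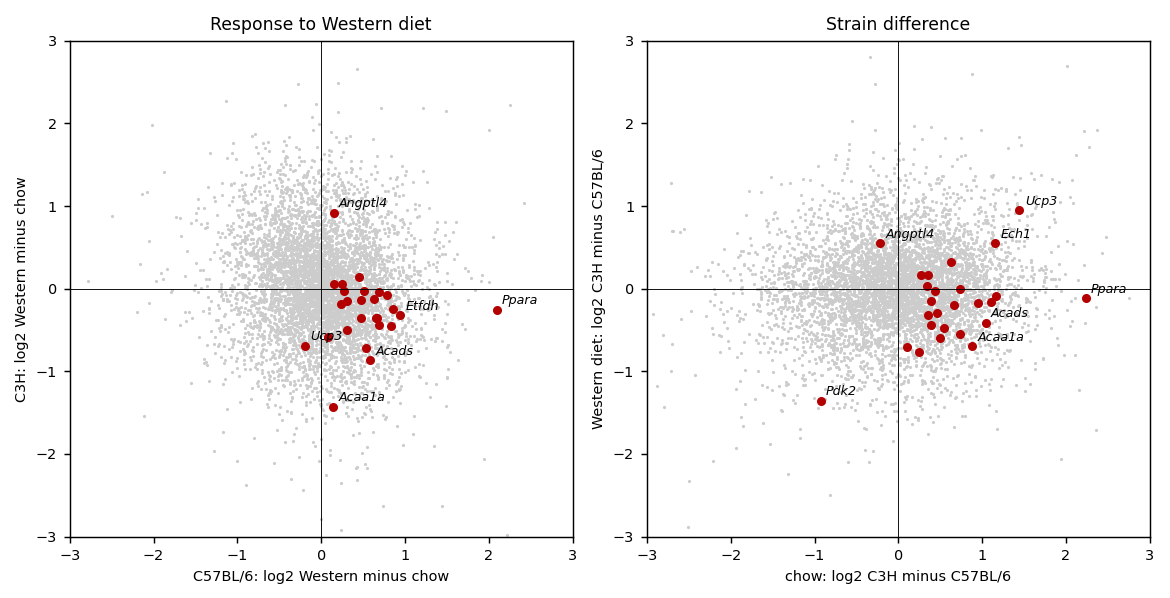
Log2 differences of the 26 members above the floor on all 4 arrays (red) over 5646 genes (grey). The left panel sets the Western diet response in C3H against that in C57BL/6, and the right panel sets the strain difference on Western diet against that on chow. Most members lie to the right of 0 on both horizontal axes, and 21 of the 26 lie to the right of 0 and below 0 in the left panel.

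Ppara, the receptor gene itself, had the widest range among members above the floor on all arrays. Its C57BL/6 signals were 244 on chow and 1043 on Western diet, and its C3H signals 1150 on chow and 962 on Western diet. Only the C57BL/6 chow array was low, and the other 3 signals lay within 1.19-fold of each other. It was 4.27-fold higher with Western diet in C57BL/6 and 4.71-fold higher in C3H on chow, by its only probe set.

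The carnitine shuttle carries long-chain acyl groups into mitochondria. Cpt2, the inner membrane carnitine palmitoyltransferase, had signals of 1082 and 1743 on C57BL/6 chow and Western and of 2093 and 1545 on C3H chow and Western. It was 1.61-fold higher with diet in C57BL/6 and 1.94-fold higher in C3H on chow. Its further set lay under the floor on both C57BL/6 arrays. In C3H that set was 1.46-fold higher with diet (91.2 and 133), where the representative set was 1.35-fold lower. Crat, which transfers short acyl groups to carnitine, had signals of 757 and 1095 in C57BL/6 and of 1693 and 1027 in C3H, chow before Western. C3H chow was thus its high array and C57BL/6 chow its low one, 2.24-fold apart. Its further probe set had the same order at the ends, 81.8 (under the floor) on C57BL/6 chow and 252 on C3H chow. Cpt1a, the outer membrane enzyme of liver type that sets the pace of the pathway, differed less, with signals of 368 and 388 in C57BL/6 and of 469 and 312 in C3H. Its 2 further sets went the other way in C57BL/6, from 182 and 116 on chow to 29.4 and 57.1, both under the floor, on Western diet.

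Acyl-CoA dehydrogenases take the first step of each cycle, each for a range of chain lengths. Acadm, for medium chains, had signals of 10343 and 16223 on C57BL/6 chow and Western and of 12257 and 9560.3 on C3H chow and Western. C57BL/6 Western stood highest, 1.57-fold above chow. Acads, for short chains, had signals of 1186 and 1777 in C57BL/6 and of 2442 and 1337 in C3H. It was higher with diet in C57BL/6 by log2 0.58, just under the threshold, and 1.83-fold lower in C3H, and it was 2.06-fold higher in C3H on chow. Acadl and Acadvl, for long and very long chains, were 1.43-fold and 1.39-fold higher with diet in C57BL/6 and 1.02-fold and 1.28-fold lower in C3H. Acadsb, for short branched chains, was 1.23-fold higher and 1.41-fold lower. All 5 were thus higher with diet in C57BL/6 and lower in C3H (Acadl in C3H not with equal array medians), and 1 in each strain passed 1.5-fold.

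Hadha and Hadhb encode the alpha and beta subunits of the mitochondrial trifunctional protein, which carries out the later steps on long chains. Hadhb had signals of 15393 and 23900.4 on C57BL/6 chow and Western and of 21224 and 19421 on C3H chow and Western. Hadha differed less, with 4367 on chow and 5172 on Western diet in C57BL/6, and 5592 and 5794 in C3H. Its C57BL/6 difference of 1.18-fold lay below the threshold, where that of Hadhb was 1.55-fold. Hadh, the 3-hydroxyacyl-CoA dehydrogenase of shorter chains, had signals of 23182 and 41872 in C57BL/6 and of 32763 and 27579 in C3H. It was 1.81-fold higher with diet in C57BL/6, and a further set gave 1.63-fold. Its other further set stood at 458 on C57BL/6 chow, 484 on C3H chow and 454 on C3H Western but at 5.86 on C57BL/6 Western, at least 5.48-fold lower on the array where the others were highest. Acaa2, the thiolase of the last step, had signals of 7798 and 12365 in C57BL/6 and of 11408 and 8899 in C3H. Its 3 probe sets were 1.59-fold, 1.81-fold and 2.08-fold higher with diet in C57BL/6, so they pointed the same way there. In C3H they were 1.28-fold and 1.03-fold lower and 1.37-fold higher.

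Promoter windows from RefSeq (build GRCm38.p6, 250 bases before to 50 after a start) were matched for 26 of the 31 members, and the sequences shown here are the 250 bases before the start of 4 of them. Hadhb is shown because only 272 bases lie between its start and that of Hadha on the opposite strand, so that the subunit genes share this stretch. The others are shown because they hold a match that was searched for. The searched letters were AGGTCA, the single element of many nuclear receptors, a direct repeat of it with 1 base between the copies (the pattern PPAR alpha is known to bind, with up to 2 mismatches allowed), and TNAAGGTCA, the pattern of estrogen-related receptors, all on both strands. A single element can lie inside either longer pattern. Capitals mark matches.
Hadhb, chr5:30155003-30155252, plus strand: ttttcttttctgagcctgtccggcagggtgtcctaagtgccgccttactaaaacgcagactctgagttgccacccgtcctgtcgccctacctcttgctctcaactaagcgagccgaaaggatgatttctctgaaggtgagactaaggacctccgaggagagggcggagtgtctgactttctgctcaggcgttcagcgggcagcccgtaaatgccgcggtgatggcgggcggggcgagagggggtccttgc
Acadm, chr3:153944644-153944893, minus strand: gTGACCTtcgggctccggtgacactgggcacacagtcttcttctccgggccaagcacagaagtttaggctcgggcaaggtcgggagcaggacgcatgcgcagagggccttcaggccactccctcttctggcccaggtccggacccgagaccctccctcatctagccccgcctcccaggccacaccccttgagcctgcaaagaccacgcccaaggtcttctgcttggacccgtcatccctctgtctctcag
Ucp3, chr7:100472741-100472990, plus strand: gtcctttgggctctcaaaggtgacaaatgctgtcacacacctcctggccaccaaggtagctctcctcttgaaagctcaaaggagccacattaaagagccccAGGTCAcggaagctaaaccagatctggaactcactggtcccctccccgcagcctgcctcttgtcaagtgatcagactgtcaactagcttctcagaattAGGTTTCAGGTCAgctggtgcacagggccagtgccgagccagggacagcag
Etfa, chr9:55512244-55512493, minus strand: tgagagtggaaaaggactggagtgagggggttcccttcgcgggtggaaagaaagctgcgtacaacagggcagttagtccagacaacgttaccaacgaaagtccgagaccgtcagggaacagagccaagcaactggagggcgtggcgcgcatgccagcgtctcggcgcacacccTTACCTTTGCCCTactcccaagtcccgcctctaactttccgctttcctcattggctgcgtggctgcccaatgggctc

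In these windows Ucp3 holds the direct repeat with 2 mismatches beginning 51 bases before its start, and Etfa holds it with 2 mismatches on the opposite strand, 77 bases before its start. Of 28 member windows, 2 held the direct repeat, against 3.86% of 32851 windows of all genes. The single element was in 4 member windows (Acadm, Acadvl, Cpt1a and Ucp3), against 16.3% of all windows, and TNAAGGTCA was in 0, against 1.28%. The single element of Acadm begins 249 bases before the start, at the edge of the window, and those of Acadvl and Cpt1a begin 87 and 94 bases before theirs. These shares are counts of letters in a short window and do not show binding.

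Peroxisomal members were less uniform. Ech1, a dienoyl-CoA isomerase of peroxisomes and mitochondria, had signals of 7361 and 10204 on C57BL/6 chow and Western and of 16362 and 14909 on C3H chow and Western. Both C3H arrays were above both C57BL/6 arrays, by 2.22-fold for chow and 1.46-fold for Western diet. Acaa1a, the peroxisomal thiolase, had signals of 331 and 366 in C57BL/6 and of 609 and 226 in C3H. Its 2.70-fold lower level with diet in C3H was the largest diet difference of a measured member there, and its further set gave 1.49-fold. On chow the representative set was 1.84-fold higher in C3H, but the further set was 1.05-fold lower. Other probe sets name Acaa1a together with its near-identical neighbour Acaa1b and were not used. Ehhadh, the peroxisomal bifunctional enzyme and a classical PPAR alpha target in liver, spanned 261 to 327 over the 4 arrays.

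Enzymes for unsaturated fatty acids shift or reduce double bonds so that the cycle can proceed. Eci1, the mitochondrial enoyl-CoA isomerase, had signals of 5319 and 9158 on C57BL/6 chow and Western and of 8409 and 7988 on C3H chow and Western. Eci2, its relative, had signals of 774 and 1252 in C57BL/6 and of 1287 and 1252 in C3H. In both genes the C57BL/6 chow array was low and the other 3 were close together, with diet differences of 1.72-fold and 1.62-fold in C57BL/6 and of 1.05-fold and 1.03-fold, downward, in C3H, where both pointed upward with equal array medians. Decr1, a dienoyl-CoA reductase, was 1.24-fold higher with diet in C57BL/6 by its representative set and 1.74-fold by its further set. That further set was 2.86-fold higher in C3H on chow.

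The electron transfer flavoprotein, encoded by Etfa and Etfb, accepts electrons from the dehydrogenases, and Etfdh passes them on to the respiratory chain. Etfdh had signals of 1948 and 3744 on C57BL/6 chow and Western and of 4182 and 3345 on C3H chow and Western. It was 1.92-fold higher with diet in C57BL/6, differed by log2 -0.32 with diet in C3H and was 2.15-fold higher in C3H on chow. Etfb had signals of 9142 and 11005 in C57BL/6 and of 14090.1 and 13780.5 in C3H. Its strain groups did not overlap, with C3H higher by log2 0.62 on chow and by log2 0.32 on Western diet. Etfa spanned 4868 to 6803 and was higher with Western diet in both strains, by 1.37-fold and 1.10-fold.

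Acyl-CoA thioesterases release free fatty acids from acyl-CoA, and their 2 members lay near the floor. Acot1, the cytosolic form, had signals of 19.7 (under the floor) and 195 on C57BL/6 chow and Western and of 74.8 (under the floor) and 86.5 on C3H chow and Western. It was at least 2.33-fold higher with diet in C57BL/6, and on Western diet it was 2.25-fold lower in C3H. Acot2, the mitochondrial form, had signals of 43.6 (under the floor) and 96.4 in C57BL/6 and of 237 and 183 in C3H. Its level in C3H was higher than in C57BL/6 by at least 2.84-fold on chow, and on Western diet by 1.90-fold. The genes are close paralogs, and a further probe set that names both was not used.

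The remaining members set fuel choice or act outside the pathway, and their patterns differed from each other. Pdk4, a kinase that shuts pyruvate out of the citrate cycle when fat is burned, had signals of 4360 and 7762 on C57BL/6 chow and Western and of 7240 and 5292 on C3H chow and Western. It was 1.78-fold higher with diet in C57BL/6 and 1.37-fold lower in C3H. Pdk2, a kinase of the same family, had signals of 425 and 503 in C57BL/6 and of 224 and 196 in C3H, so both C3H arrays lay below both C57BL/6 arrays, by 1.90-fold and 2.56-fold. Ucp3, a mitochondrial carrier of muscle and brown fat, had signals of 159 and 139 in C57BL/6 and of 432 and 268 in C3H. It was 2.72-fold and 1.93-fold higher in C3H. Its further set was higher in C3H by at least 3.68-fold on chow and by 1.21-fold on Western diet, but with diet in C57BL/6 it was at least 2.35-fold higher where the representative set was 1.14-fold lower. Angptl4, a secreted inhibitor of lipoprotein lipase, had signals of 1159 and 1286 in C57BL/6 and of 997 and 1886 in C3H, and it was the 1 member at least 1.5-fold higher with diet in C3H (1.89-fold).

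Groups that did not overlap were about as frequent among members as among all genes, or less so. Both C3H arrays lay above both C57BL/6 arrays for 5 of 26 members (Hadha, Ehhadh, Ech1, Etfb and Ucp3; 18.5% of genes) and below for 1, Pdk2 (18.6%). Both Western arrays lay above both chow arrays for 2, Etfa and Angptl4 (15.1%), and below for 0 (13.5%). An additive limma fit with terms for strain and diet gives the only test that 4 arrays allow. Its error is the strain-by-diet interaction, with 1 residual degree of freedom, so opposite diet differences count as noise in it. Of 41 member probe sets tested, 0 passed an adjusted p of 0.05 in limma for strain, where 57 of 14915 probe sets did (0.382%), and 0 for diet, where 0% did. At an unadjusted limma p under 0.05 there were 6 for strain (5.85% of all probe sets) and 3 for diet (2.46%). The Hadh set with the single dim array is in both counts, and both Ucp3 sets are in that for strain. With 1 probe set per gene the counts were 3 and 0 of 28, where 493 and 224 of 8889 probe sets passed. Ppara had a limma strain term of log2 1.06 ± 0.43 (SE, adjusted p = 0.755) and Pdk2 one of -1.14 ± 0.46 (adjusted p = 0.753). The strain groups overlap for Ppara, whose C3H Western signal lies below that of C57BL/6 Western, and do not overlap for Pdk2. The lowest adjusted p for strain, 0.45, belonged to the Hadh set with the single dim array. Without a filter on low signals that set passed limma for strain (adjusted p = 0.00411).

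**Figure D3:**
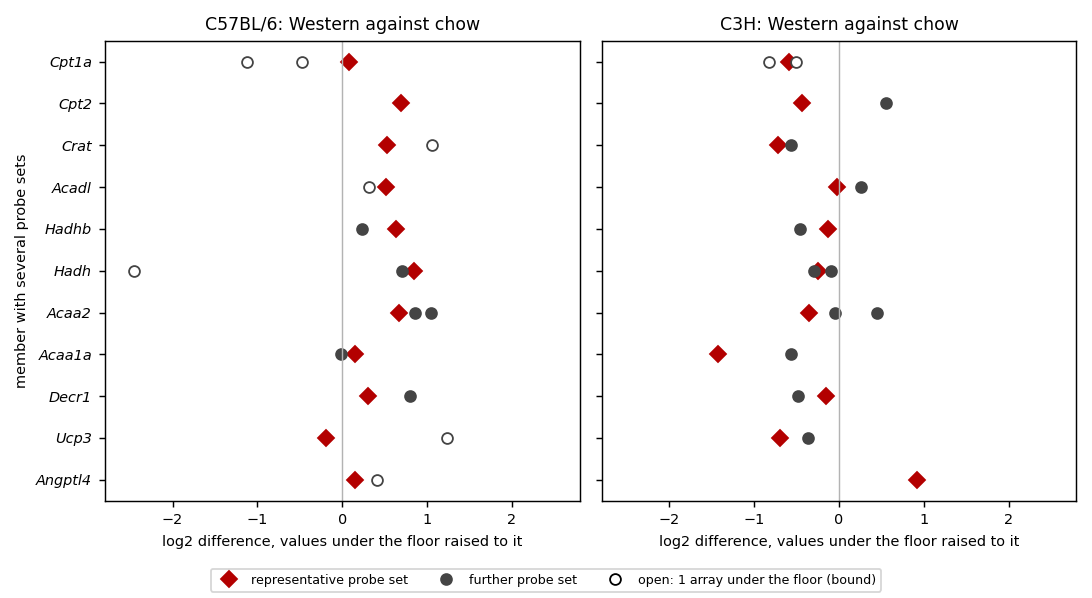
Log2 difference between Western diet and chow for every probe set of the 11 members with more than 1, in C57BL/6 (left) and C3H (right), with the floor in place of any signal under it. Red diamonds are representative sets, dark circles further sets and open symbols bounds. In C57BL/6, sets of Acaa2, Hadhb, Decr1, Crat and Acadl lie on 1 side of 0, while sets of Cpt1a, Hadh, Ucp3 and, by small amounts, Acaa1a lie on both.

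Other genes of the pathway, taken from a list of 55, had median differences of the same sign as the members in all 4 comparisons. Of 40 measured in C57BL/6, 15 were at least 1.5-fold higher with Western diet (13.8% of all genes) and 1 lower (14.3%), with a median log2 difference of 0.53. In C3H, 2 of 37 were higher and 11 lower (17.1% each way), with a median of -0.44. On chow 23 of 38 were higher in C3H (20.8%) and 0 lower (20.4%), with a median of 0.73. On Western diet 2 of 40 were higher (13.3%) and 8 lower (13.4%), with a median of -0.04. Of the 37 above the floor on all arrays, 26 were lowest on C57BL/6 chow (27.4%). Among genes of this list above the floor on at least 2 arrays, the widest ranges were those of Acox3, Acad10, Vnn1 and Creb3l3, each under the floor on 1 or 2 arrays. For Acox3 and Acad10 that array was C3H chow, at 7.24 and 7.38, and for Vnn1 the lowest was C57BL/6 chow, at 6.93. Further genes were picked after their values were seen. Plin5, which ties lipid droplets to mitochondria, had signals of 164 and 539.6 on C57BL/6 chow and Western and of 683 and 485 on C3H chow and Western. Slc25a20, the carnitine-acylcarnitine carrier, had signals of 2294 and 4025 in C57BL/6 and of 5232 and 3964 in C3H. Both were lowest on C57BL/6 chow and highest on C3H chow.

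Genes of the citrate cycle and of mitochondrial content had medians of the same sign, smaller than those of the members in 3 of the 4 comparisons. Their median log2 difference with diet was 0.34 in C57BL/6 (2 of 21 at least 1.5-fold higher and 0 lower, against 13.8% and 14.3% of all genes). In C3H it was -0.22 (0 higher and 3 lower, against 17.1% each way). On chow it was 0.43 in favour of C3H (9 higher and 1 lower, against 20.8% and 20.4%). On Western diet it was -0.22 (0 higher and 2 lower, against 13.3% and 13.4%). Of these 21, 15 were lowest on C57BL/6 chow (27.4% of genes). Dlst, a subunit of the oxoglutarate dehydrogenase complex, had signals of 1145 and 2042 in C57BL/6 and of 2361 and 1436 in C3H. Ogdh, another subunit of that complex, was at 2380.2 and 2959 in C57BL/6 and at 4294 and 2818 in C3H, and Sdhc, a subunit of succinate dehydrogenase, at 679 and 797 in C57BL/6 and at 1355 and 1017 in C3H. Suclg2, a subunit of succinyl-CoA ligase, went against the list, with 504 and 529.9 in C57BL/6 and 302 and 298 in C3H.

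Markers of fat cells differed between the arrays along with these genes. In whole aorta, fewer cells of a type and less RNA per cell cannot be told apart. Brown adipocyte markers, 11 of 15 with a probe set, summed to 43728 and 50824 on C57BL/6 chow and Western and to 87440 and 58753 on C3H chow and Western. Of the 9 above the floor on all arrays, 7 were lowest on C57BL/6 chow (27.4% of genes). On chow 9 of 9 measured were at least 1.5-fold higher in C3H (20.8% of genes), with a median log2 difference of 1.23, against 0.52 for members. With diet 1 of 9 was higher and 0 lower in C57BL/6 (median 0.34). In C3H, 0 of 10 were higher and 5 lower with diet, with a median of -0.77, or -0.24 without Ppargc1a. On Western diet 1 of 9 was higher and 1 lower in C3H (0.16). Ucp1, the uncoupling protein of brown fat, had signals of 10640.1 and 9098 in C57BL/6 and of 25040.3 and 10130.1 in C3H, so it was not lower on C57BL/6 chow than on Western diet. Dio2, the deiodinase that activates thyroid hormone in brown fat, was at 306 and 361 in C57BL/6 and at 3451 and 457 in C3H, and Elovl3, a fatty acid elongase, at 318 and 456 in C57BL/6 and at 1490.3 and 342 in C3H. Both stood out on C3H chow, as did Ppargc1a. Lhx8 lay under the floor on both C57BL/6 arrays (5.18 and 49.9) and just above it in C3H (93.8 and 92.3). General adipocyte markers, 14 of 16, summed to 92984 and 138594 in C57BL/6 and to 134732 and 115168 in C3H. This order of arrays was like that of the members' sums, where C57BL/6 Western stands above C3H chow only with Hadh. On chow 10 of 12 markers were at least 1.5-fold higher in C3H and 0 lower, with a median log2 difference of 0.82. With diet 6 of 12 were higher and 0 lower in C57BL/6 (median 0.59), and 0 of 13 higher and 4 lower in C3H (-0.39). On Western diet 1 of 13 was higher and 3 lower in C3H (-0.07). Adipoq (adiponectin) was at 7958 and 12257 in C57BL/6 and at 14216 and 13723 in C3H. Dgat2, an enzyme of triglyceride synthesis, was at 5000.4 and 6391 in C57BL/6 and at 11760.4 and 6107 in C3H, and the glucose carrier Slc2a4 at 787 and 875 in C57BL/6 and at 2054 and 894 in C3H. Retn (resistin) was at 266 and 452 in C57BL/6 and at 461 and 155 in C3H, and the glycerol channel Aqp7 at 70.5 (under the floor) and 127 in C57BL/6 and at 295 and 306 in C3H. Pparg, Lipe and Fabp4 belong to the adipocyte list as well as to lists of this pathway, and Ppargc1a is in the brown list as well as among the coactivators. Without shared genes the general adipocyte markers summed to 63303 and 105292 in C57BL/6 and to 88653 and 80554 in C3H, in the same order of arrays. Scd1 alone supplied 36523 and 65163 of both sums in C57BL/6 and 31398 and 40729 in C3H. Its own signal was lowest on C3H chow, and the place of C57BL/6 Western above C3H chow in both sums rests on it. Ucp1 and Adipoq were far above the floor on every array, while Zic1 of the brown list and Lep of the general list were under it on all 4, and their part in the members' differences was not tested.

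On the C57BL/6 chow array muscle and matrix markers stood highest, where most members stood lowest. Heart muscle markers, all 21 with a probe set, summed to 28256 and 23025 on C57BL/6 chow and Western and to 5879 and 4371 on C3H chow and Western. Of these sums, Fabp3, which is also in the list of other pathway genes, supplied 1882 and 3659 in C57BL/6 and 4187 and 3011 in C3H. Without it the heart list summed to 26374 and 19366 in C57BL/6 and to 1692 and 1360.1 in C3H. Myl7, a myosin light chain of the atrium, was at 2876 and 2216 in C57BL/6 and at 9.94 and 10.5, under the floor, in C3H. In other contrasts the heart list had the sign of the members, with a median log2 difference of -0.31 for diet in C3H (4 genes measured) and of -2.32 for strain on Western diet (5 genes). Without Fabp3 these medians were -0.15 (3 genes) and -2.73 (4 genes). Fast skeletal muscle markers, 14 of 15, summed to 2838 and 1687 in C57BL/6 and to 2022 and 1821 in C3H, where their median diet difference was -0.18 (6 genes). Smooth muscle markers, all 16, summed to 157901 and 121714 in C57BL/6 and to 76194 and 120877 in C3H, and Acta2, smooth muscle actin, was well above the floor throughout (23565 to 54541). Fibroblast and matrix markers, 17 of 18, summed to 140259 and 47253 in C57BL/6 and to 33813 and 63136 in C3H, highest on C57BL/6 chow and lowest on C3H chow. Elastin, Eln, was at 20521 and 4669 in C57BL/6 and at 3487 and 7701 in C3H, and the collagen gene Col1a1 at 9717 and 1720 in C57BL/6 and at 1512 and 2782 in C3H. Mfap5 and Col5a2, a microfibril protein and a collagen, stood at 7224 and 4538 on C57BL/6 chow and at 744 to 1984 on the other arrays. The part of muscle and matrix markers in the members' differences was not tested either.

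Vascular and immune markers shared some of the members' directions. Endothelial markers, all 10, had sums of 6730 to 8122. On chow 4 of 9 measured were at least 1.5-fold higher in C3H (20.8% of genes) and 0 lower (20.4%). Of the 9 above the floor on all arrays, 5 were lowest on C57BL/6 chow (27.4% of genes). Kdr, a receptor of vascular endothelial growth factor, was at 265 and 272 in C57BL/6 and at 539 and 620 in C3H, and the receptor gene Tie1 at 60.2 (under the floor) and 296 in C57BL/6 and at 252 and 207 in C3H. Tek, its relative, was at 338 and 651 in C57BL/6 and at 412 and 732 in C3H, and Egfl7 at 956 and 763 in C57BL/6 and at 1585 and 1011 in C3H. Pecam1, Vwf and Emcn of this list were lower in C3H than in C57BL/6 on chow, with log2 differences of -0.38, -0.31 and -0.23. Macrophage markers, all 10, summed to 3274 and 4087 in C57BL/6 and to 3139 and 5551 in C3H. With diet in C57BL/6, 4 of 8 were at least 1.5-fold higher (13.8% of genes) and 0 lower (14.3%). Their median log2 difference was 0.52, close to that of the members. In C3H their median was 0.29 (2 of 7 higher and 0 lower, against 17.1% of genes each way), opposite in sign to the members. Ctss, a lysosomal protease, was at 239 and 373 in C57BL/6 and at 193 and 539 in C3H, and Lyz2, lysozyme, at 1419 and 1658 in C57BL/6 and at 1015 and 2160.2 in C3H. Adgre1 was under the floor on C3H chow and Cd163 on both chow arrays, and Itgam was under it on all 4. The part of endothelial and macrophage markers in the members' differences was not tested. Hepatocyte markers, 9 of 10, summed to 440 to 765, and Alb, albumin, reached no more than 100.3, with Apoa1, Ttr and Tat under the floor on all arrays.

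**Figure D4:**
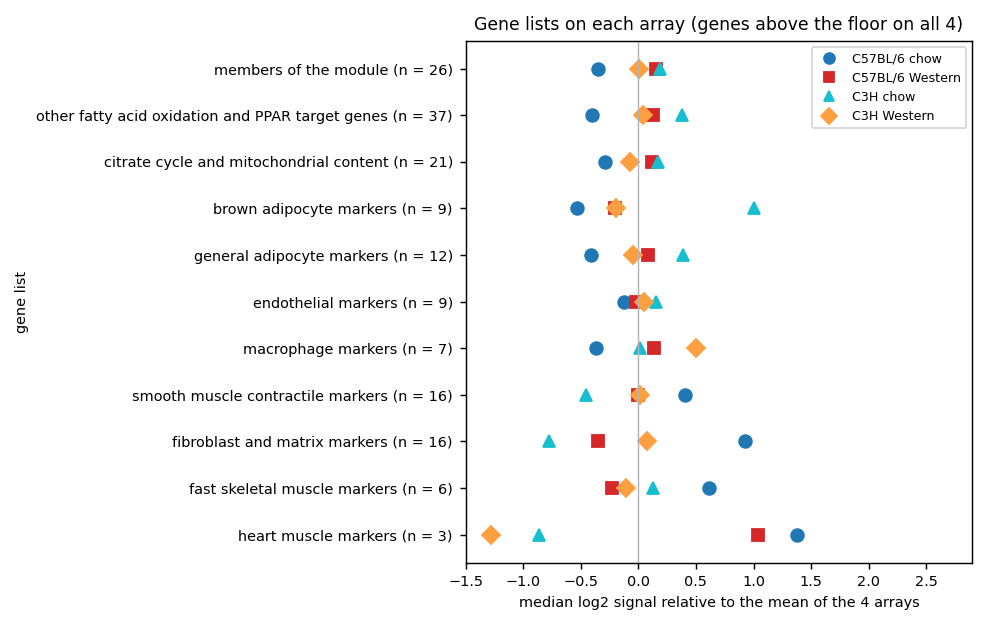
Median log2 signal of each gene list on each array, relative to each gene's mean over the 4 arrays, for genes above the floor on all 4 (number in brackets). Members, other pathway genes, the citrate cycle, both fat lists and the endothelial and macrophage lists are lowest on C57BL/6 chow, where smooth muscle, matrix, fast skeletal and heart muscle lists are highest (heart muscle rests on 3 genes).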

How the data were processed

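Total RNA of aorta (Trizol, 8 ug for each of 4 samples) was turned into biotinylated cRNA for a 1-colour Affymetrix array, per the labels' protocols. The deposited values are linear intensities, and how the authors' software set background and scale is not stated in the labels. These intensities share 1 mean after trimming 2% at each end, and their array medians were 110.3 to 128.1. Control probe sets (64) were left out. Log2 intensities were quantile normalized in limma 3.58.1 (R 4.3.3). Of 22626 probe sets, 20380 name 1 gene, 691 several and 1555 are unnamed here, by the platform annotation.

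Members, role groups and 12 further lists were chosen with earlier results of these data known. Full values are given for Ppara, for the widest and the highest member of each role group, for members with a 2-fold difference and for members whose probe sets disagree by 1.5-fold each way. In other lists the rule takes up to 4 genes of widest range among those above the floor on at least 2 arrays, plus set defining markers. Of the heart, skeletal and smooth muscle and hepatocyte lists only a defining marker each is printed, or none. Genes at or past 1.5-fold were counted without a test. The test is an additive limma fit (terms for diet and strain, eBayes with the trend option, Benjamini-Hochberg over the 14915 probe sets that pass the floor on 2 or more arrays), which was tested on simulated data first. The number of arrays limits the precision. Alternatives were the deposited values, equal medians, cyclic loess, other floors and thresholds, all probe sets of a gene, fewer members and, added after the data were seen, leaving out either chow array. Counts and figures were made in Python 3.11.15 (numpy 2.4.6, pandas 2.3.3, matplotlib 3.10.9).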

Additional observations from a re-analysis of the deposited data

Results flagged for a closer look

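The diet differences of the strains pointed in opposite directions, and with 1 array per group that opposition was not tested. The median log2 difference of the members was 0.50 in C57BL/6 and -0.26 in C3H. The strains differed in their diet difference by at least log2 1, with opposite signs, for 10 of 26 members, where 10.6% of genes had that pattern. Those were Ppara (2.09 in C57BL/6 and -0.26 in C3H), Etfdh (0.94 and -0.32), Hadh (0.85 and -0.25), Pdk4 (0.83 and -0.45), Cpt2 (0.69 and -0.44), Acaa2 (0.67 and -0.36), Acadm (0.65 and -0.36), Acads (0.58 and -0.87), Crat (0.53 and -0.72) and Acaa1a (0.15 and -1.43). Each rests on 1 array per group and on the representative probe set, and further sets did not all follow. In C57BL/6 and C3H the further Acaa1a set gave -0.02 and -0.57, and those of Acaa2 0.85 and -0.05, and 1.05 and 0.45. A further Hadh set gave 0.71 and -0.29, and the other, at least 5.48-fold lower in C57BL/6, gave -0.09 in C3H. The further Crat set was at least 2.08-fold higher in C57BL/6 and gave -0.57 in C3H. The further Cpt2 set lay under the floor in C57BL/6 and gave 0.55 in C3H, opposite in sign to its representative set.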

How the results depend on the processing

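Median differences of the members kept their direction in every comparison and under every alternative run, from 0.45 to 0.70 for diet in C57BL/6, -0.39 to -0.20 for diet in C3H, 0.50 to 0.68 for strain on chow and -0.28 to -0.12 for strain on Western diet. The number of members lowest on C57BL/6 chow was 18 to 21. Counts at 1.5-fold moved more. With equal array medians, 16 members were higher with diet in C57BL/6, 2 were lower in C3H, 6 were highest on C3H chow, and 1 was higher in C57BL/6 and lower in C3H at 1.5-fold each. That last count was also 1 with the deposited values and 8 when a difference of 25% over the lower array was enough. With cyclic loess 6 members were higher with diet in C57BL/6. With the floor at the 60th percentile 0 were higher in C3H on Western diet, and without Acot1 and Acot2 1 was. At 2-fold the counts of higher and lower members were 1 and 0 (diet in C57BL/6), 0 and 1 (diet in C3H), 6 and 0 (strain on chow) and 0 and 2 (strain on Western diet). At that 25% threshold 16 were higher with diet in C57BL/6, 13 lower in C3H, 21 higher in C3H on chow, and on Western diet 5 were higher and 10 lower in C3H. Shares of all genes at 25% are not given, so these counts and the 8 above cannot be set against a background. The additive limma fit without a filter called 1 member probe set for strain, the Hadh set with 1 very dim array. Without the C3H chow array the counts for diet in C57BL/6 were 10 and 0, and without the C57BL/6 chow array those for diet in C3H were 1 and 4. No paired analysis was possible because each group has 1 array.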

Other observations

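The coactivator genes Ppargc1a and Ppargc1b were highest on the C3H chow array. Ppargc1a, a coactivator of mitochondrial and thermogenic genes, had signals of 211 on C57BL/6 chow and of 211 on C57BL/6 Western, and it was at 831 on C3H chow against 121 on C3H Western. Ppargc1b, its relative, had signals of 389.9 and 649.9 in C57BL/6 and of 1568 and 544 in C3H. Esrra, an estrogen-related receptor that works with them, was at 288 and 151 in C57BL/6 and at 482 and 458 in C3H. Pparg, the receptor of adipocytes, was highest on C57BL/6 Western (2273, against 1291 on C57BL/6 chow and 1581 and 1197 on C3H chow and Western), and was thus not low on C57BL/6 chow in the way of Ppara. Of 10 genes of this list measured with diet in C57BL/6, 3 were at least 1.5-fold higher (13.8% of all genes) and 1 lower (14.3%). Their median log2 difference was -0.09. In C3H 0 of 11 were higher and 4 lower (17.1% of all genes each way), with a median of -0.24. Pparg was picked after its values were seen. Ncoa2 had a wide range (193 and 11.5 in C57BL/6, 128 and 62.5 in C3H) but lay under the floor on both Western arrays.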
